A study of Mus musculus with 6 samples.

Results

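A set of 10 genes of the leukaemia inhibitory factor (LIF), interleukin 6 and STAT3 pathway are described here in mouse embryonic stem (ES) cells that received a short hairpin RNA against Chd4. They were chosen by name, as the probes annotated to Lif, Il6, Lifr, Il6st, Osmr, Stat3, Socs3, Pim1, Pim3 and Bcl3. These 10 genes, of 19057 named genes on the array, had 22 of its 45281 probes. RNA was measured on 6 Illumina BeadChip arrays, 3 from cells transfected with a control and 3 from cells transfected with an shRNA vector against Chd4 (shChd4), the ATPase of the NuRD chromatin complex. Both groups grew in 15% serum with LIF added in excess, on mouse embryonic fibroblast feeders treated with mitomycin C to stop division. The shRNA plasmids (pHYPER) were introduced by electroporation, and puromycin was given from 24 h after transfection for 48 h. The labels name no strain, genotype or ES cell line, do not say which plasmid the controls received, and state no removal of feeder cells before RNA was extracted. They give each shChd4 array a sample identifier of its own, and do not say whether the 3 share a hairpin or whether any arrays come from separate cultures. Replicate numbers used here follow the order of the arrays in the series and only name an array. The p-values set each difference against the variation among these samples only, and part of that variation may be technical. The SEs and p-values come from limma, which draws each variance towards a value estimated over all genes or probes tested. An SE can therefore exceed what the spread of a gene's own arrays would give. Each group was hybridised to a BeadChip of its own (3 arrays per chip), so an effect of the chip cannot be told apart from that of the hairpin.

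LIF, interleukin 6, oncostatin M and interleukin 11 are cytokines that signal through receptor complexes containing gp130, the product of Il6st. LIF binds the LIF receptor (Lifr), which pairs with gp130; associated JAK kinases then phosphorylate STAT3, which enters the nucleus and switches on target genes, among them its own inhibitor Socs3. In mouse ES cells this route sustains self-renewal, and LIF is added to the medium for that reason.

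The RefSeq promoter windows (assembly GRCm38.p6, 250 bases before to 50 after a start site) were searched for the STAT motif TTCNNNGAA, which reads the same on both strands. Windows were found for 10 of 10 members, 12 in all, and 1 of them, that of Socs3, held a match. Of all 32851 windows, 8.30% held one. The Socs3 window is shown because it is the one with a match, which is in capitals and begins 154 bases before the start site. The Lif and Pim3 windows are shown beside it as those of the tested members with the largest rise and the largest fall; neither holds a match. A match is a description of letters, and these arrays do not measure binding. The windows lie at chr11:117969317-117969616 (minus strand, Socs3), chr11:4257318-4257617 (plus strand, Lif) and chr15:88861944-88862243 (plus strand, Pim3), each written in the direction of transcription.
Socs3: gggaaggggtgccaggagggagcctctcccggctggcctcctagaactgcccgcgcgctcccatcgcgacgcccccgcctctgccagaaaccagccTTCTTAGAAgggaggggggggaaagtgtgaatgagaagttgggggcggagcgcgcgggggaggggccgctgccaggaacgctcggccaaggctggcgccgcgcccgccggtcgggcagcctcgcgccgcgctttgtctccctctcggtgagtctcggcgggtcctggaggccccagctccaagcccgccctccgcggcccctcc
Lif: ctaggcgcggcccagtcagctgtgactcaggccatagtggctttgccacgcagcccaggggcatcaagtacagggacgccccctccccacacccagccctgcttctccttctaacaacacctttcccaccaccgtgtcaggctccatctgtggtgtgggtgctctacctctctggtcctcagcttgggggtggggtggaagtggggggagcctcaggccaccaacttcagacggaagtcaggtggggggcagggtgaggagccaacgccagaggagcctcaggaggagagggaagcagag
Pim3: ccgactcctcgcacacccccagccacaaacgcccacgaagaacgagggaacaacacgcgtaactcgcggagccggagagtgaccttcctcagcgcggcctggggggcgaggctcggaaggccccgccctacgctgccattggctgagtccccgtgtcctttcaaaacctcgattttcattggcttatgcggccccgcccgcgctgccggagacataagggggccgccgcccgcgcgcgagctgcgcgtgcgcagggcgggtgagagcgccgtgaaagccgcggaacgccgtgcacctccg

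Lif and Osmr transcripts were higher on every shChd4 array than on any control array, while Pim3 and Bcl3 were lower. Socs3 was slightly higher and passed the test by a small margin. Stat3, Lifr, Il6st and Pim1 did not pass, and Il6 was not detected on any array. Of the 10 members, 9 were tested, 3 rose and 2 fell at a limma adjusted p under 0.05. That is 55.6% of 9, where 38.1% of the 9808 genes tested passed (19.9% higher, 18.2% lower). Lif, Osmr and Pim3 changed at least 2-fold, against 12.6% of all genes tested, both with background correction. Without it their log2 fold changes were 0.62, 0.57 and -0.99, and none of these reached 2-fold. Groups did not overlap for 6 of the 9, against 50.3% of all genes. The median log2 fold change of the 9 was -0.03, beside -0.05 for all genes. Lif and Osmr entered the test through their shChd4 arrays (Lif was detected on 0 control arrays, Osmr on 1), so the counts are a description.

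**Figure D1:**
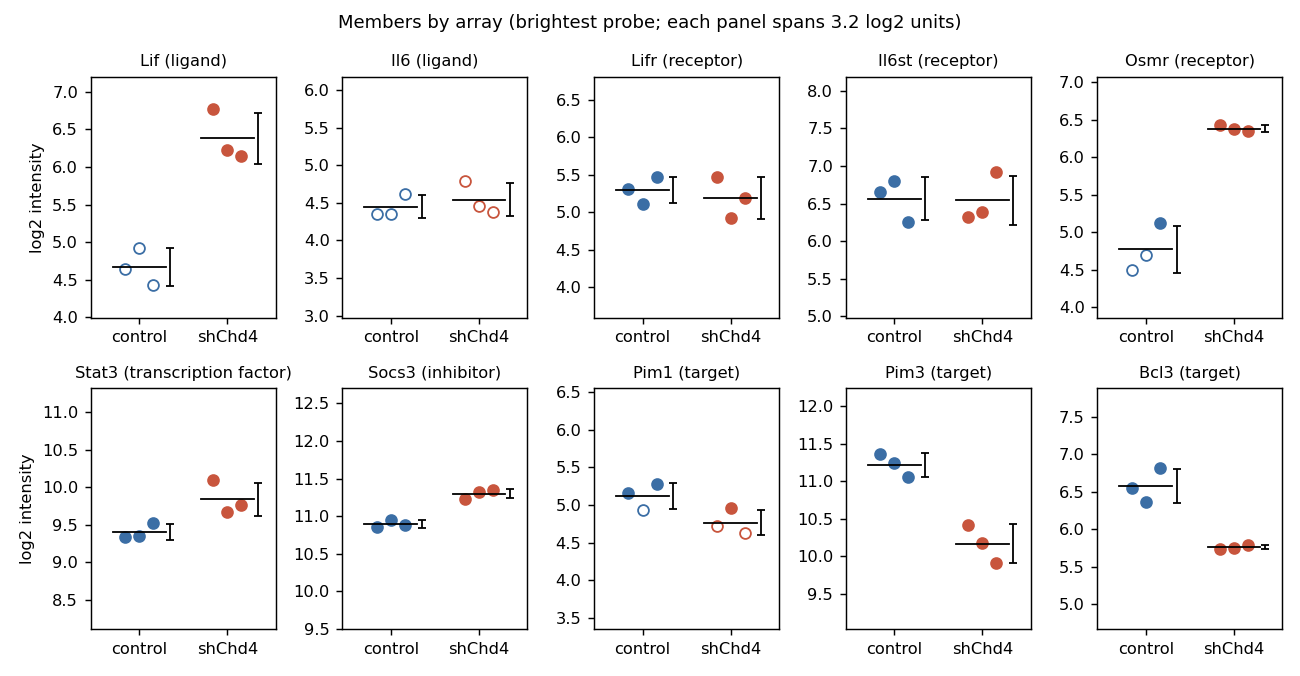
Log2 intensity of the brightest probe of each of the 10 members on the 3 control (blue) and 3 shChd4 (red) arrays; open points were not detected, horizontal lines are group means and bars 1 SD. Lif and Osmr lie higher and Pim3 and Bcl3 lower on all shChd4 arrays, and all points of Il6 are open.

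The targeted transcript was lower in the labelled group: Chd4 read 10.13, 10.13 and 10.17 in the controls (log2 intensity) and 8.06, 7.91 and 8.33 after Chd4 shRNA, or 24.3% of the control mean. Detected probes made up 34.9% to 35.6% of all probes on the control arrays and 37.7% to 38.7% on the shChd4 arrays. Feeders are fibroblasts, and of 17 fibroblast markers tested 14 rose and 0 fell (19.9% of all genes rose), with a median log2 fold change of 2.55; Thbs2 (4.57) and Dcn (5.39) had the smallest p. Of the 17, Col1a1, Lum, Col6a2 and Pdgfrb were detected on 0 control and 3 shChd4 arrays and so were tested only through the group where they are high. The mean log2 level of these markers lay between 5.60 and 6.12 in the controls and between 8.07 and 8.34 after Chd4 shRNA. Of the 22 markers listed, Col5a2 and Postn were not detected on any array. Of 8 ES cell markers, 6 fell and 0 rose (18.2% of all genes fell), with a median of -0.93. Pou5f1 (-1.26) and Zfp42 (-1.01) had the smallest p. The mean of the 8 ranged from 10.9 to 11.1 on control and from 9.96 to 10.4 on shChd4 arrays. In such bulk RNA, fewer cells of a type and less RNA per cell cannot be told apart, and the part of feeder RNA in the changes below was not tested.

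**Figure D2:**
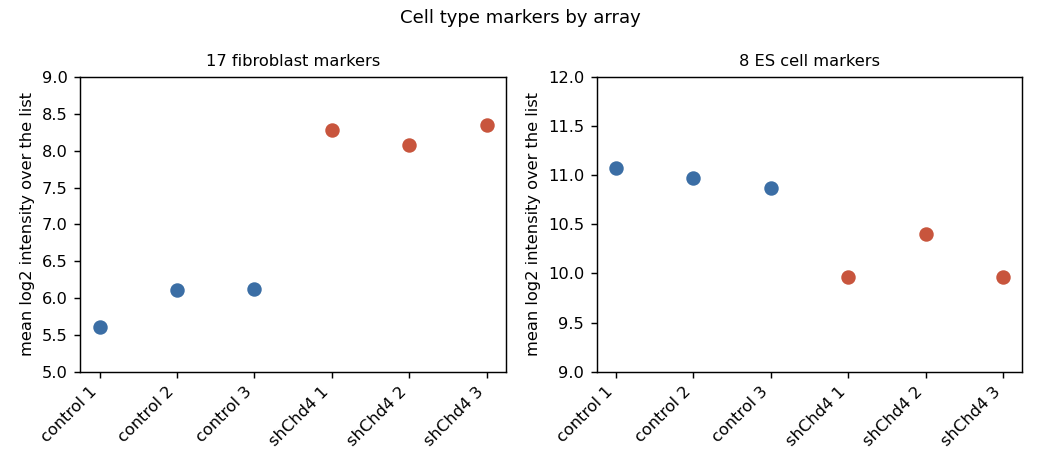
Mean log2 intensity over 17 fibroblast markers (left) and 8 ES cell markers (right), 1 point per array. The fibroblast mean is at least 8.07 on every shChd4 array and at most 6.12 on every control array; the ES cell mean lies lower on the shChd4 arrays.

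The ligand gene Lif encodes the cytokine that was also added to the medium. Its brightest probe read 4.64, 4.93 and 4.42 (log2 intensity) in the controls and 6.77, 6.22 and 6.15 after Chd4 shRNA. No control array detected it and every shChd4 array did, and shChd4 replicate 1 was the highest. With background correction, its shChd4 mean lay 2.58-fold above the lowest detected signal of the control arrays. In the fit Lif rose by 1.72 ± 0.20 on the log2 scale (SE, n = 3 a group; adjusted p = 9.26e-05 by limma), number 303 among the rises when the 9808 genes were ordered by fold change. Without background correction its log2 fold change was 0.62.

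The Lif probes fell into separate sets. The brightest probe (ILMN_3137287) and the second (ILMN_3137291) carry the same RefSeq transcript in the annotation. That second probe read 4.70, 4.48 and 5.10 on control and 6.29, 5.54 and 6.04 on shChd4 arrays, a log2 fold change of 1.19 (limma adjusted p = 0.00152 over 14610 probes). The 3 other Lif probes, annotated to a different Lif transcript, were not detected on any array, and their shChd4 minus control differences were -0.04, 0.08 and -0.07. No statement on the level of that transcript follows from probes that stay at background.

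Il6, the second ligand, encodes an inflammatory cytokine made by fibroblasts and macrophages. Its single probe gave scanner intensities of 108.3, 101.8 and 113.7 on control and 124.5, 110.7 and 105.2 on shChd4 arrays. The lowest of its 6 detection p-values was 0.0726, on shChd4 replicate 1. The groups overlapped and Il6 was not tested. At this signal over background no level can be given for it.

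**Figure D3:**
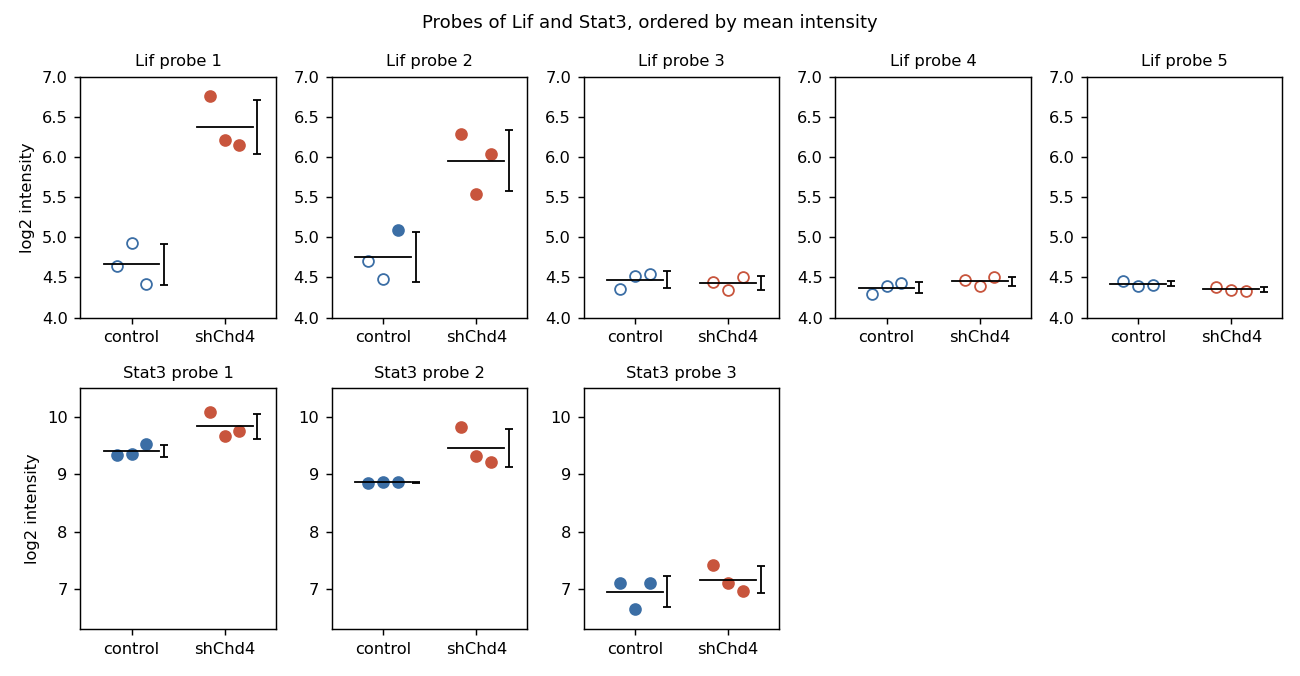
Log2 intensity by array for the 5 probes of Lif (top) and the 3 probes of Stat3 (bottom), ordered by mean; open points were not detected, lines are group means and bars 1 SD. The first 2 Lif probes rise and the other 3 stay at background, and the difference of the dimmest Stat3 probe is the smallest of the 3.

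Among the receptors, only Osmr passed the test. It encodes the oncostatin M receptor subunit, which pairs with gp130. Its brightest probe read 4.50, 4.70 and 5.12 in the controls, of which 1 detected it, and 6.43, 6.37 and 6.34 after Chd4 shRNA, where all did. The shChd4 arrays lay within an SD of 0.05 and well above the controls (SD 0.31). Osmr rose by 1.61 ± 0.18 on the log2 scale (SE, n = 3 a group; adjusted p = 6.09e-05 by limma), number 359 among the rises. Without background correction it was 0.57. Another pair of Osmr probes, annotated to other cDNA accessions, was not detected on any array (-0.02 and 0.06).

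Lifr, the receptor subunit that binds LIF, was close to background on all arrays. Its brightest probe read 5.31, 5.12 and 5.47 on control and 5.48, 4.92 and 5.19 on shChd4 arrays. These groups overlapped throughout. Between the group means lay -0.10 ± 0.18 log2 units (SE; limma adjusted p = 0.688), with a 95% confidence interval from -0.51 to 0.30. Its other probes were detected on 1 array in all and differed by -0.17 and -0.35.

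Il6st encodes gp130, the signalling subunit shared by the whole family. Its brightest probe read 6.65, 6.80 and 6.25 on control and 6.33, 6.38 and 6.92 on shChd4 arrays. The highest value was that of shChd4 replicate 3 and the lowest that of control replicate 3. Its log2 fold change came to -0.03 ± 0.21 (SE; limma adjusted p = 0.942), with a 95% confidence interval from -0.48 to 0.43, or 0.717 to 1.35 as a fold. A second Il6st probe was not detected on any array (0.02).

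Stat3, the transcription factor of the pathway, had higher readings on every shChd4 array but did not pass. The brightest of its 3 probes read 9.34, 9.35 and 9.52 on control and 10.09, 9.68 and 9.76 on shChd4 arrays. On the log2 scale the difference was 0.44 ± 0.16 (SE, n = 3 a group; adjusted p = 0.0564 by limma). The call depended on the setting: Stat3 passed in 6 of 14 alternatives, with adjusted p from 0.0214 to 0.178. It passed without shChd4 replicate 2 (0.52, adjusted p = 0.0439). Within its group shChd4 replicate 1 read highest, and without it the difference was 0.31 (adjusted p = 0.178).

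The second Stat3 probe, annotated to the same transcript, read 8.85, 8.88 and 8.86 on control and 9.83, 9.32 and 9.21 on shChd4 arrays. Its log2 fold change was 0.59 ± 0.19 (SE), and it passed among probes (limma adjusted p = 0.0263). The third and dimmest, annotated to a different Stat3 transcript, read 7.10, 6.65 and 7.11 on control and 7.42, 7.10 and 6.95 on shChd4 arrays. There the groups overlapped (0.21 ± 0.19, limma adjusted p = 0.429). Whether the probes differ from each other in their change was not tested.

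Socs3 encodes the feedback inhibitor that blocks gp130 and JAK signalling, and its promoter window is the one above with a STAT motif. It read 10.85, 10.95 and 10.88 in the controls and 11.23, 11.32 and 11.35 after Chd4 shRNA. The groups did not overlap, with SDs of 0.05 and 0.06. Socs3 rose by 0.40 ± 0.14 on the log2 scale (SE, n = 3 a group; adjusted p = 0.0475 by limma), or 1.32-fold. This call was lost in 8 of 14 alternatives, among them leaving out any 1 of the 6 arrays (adjusted p 0.0628 to 0.129) and median scaling (0.27, adjusted p = 0.226). Among probes it did not pass (limma adjusted p = 0.0567).

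The targets Pim3 and Bcl3 fell, in the opposite direction to Socs3. Pim3, a serine/threonine kinase gene induced by LIF in ES cells, had scanner intensities of 3102, 2319 and 2331 on control and 1528, 1202 and 990.3 on shChd4 arrays. After normalisation the log2 values were 11.36, 11.24 and 11.05 against 10.42, 10.18 and 9.91. Every shChd4 array lay below every control array, and the lowest was shChd4 replicate 3. Its log2 fold change of -1.05 ± 0.18 (SE, n = 3 a group; adjusted p = 0.000949 by limma) equals 48.4% of the control mean. It was number 328 among the falls and passed in 14 of 14 alternatives, between -1.18 and -0.92. Pim3 is bright, and its value without background correction was -0.99.

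Bcl3 encodes a nuclear IkB protein that binds NF-kB subunits and is a STAT3 target. It read 6.55, 6.36 and 6.81 on control and 5.73, 5.76 and 5.79 on shChd4 arrays. The shChd4 arrays lay within an SD of 0.03, below all controls. Its log2 fold change of -0.82 ± 0.16 (SE, n = 3 a group; adjusted p = 0.00265 by limma) equals 56.8% of the control mean and was number 661 among the falls. It passed in 14 of 14 alternatives, and without background correction it was -0.36.

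Pim1, the paralogous kinase gene and also a STAT3 target, was near background and detected on 2 control arrays and 1 shChd4 array. It read 5.16, 4.94 and 5.28 on control and 4.71, 4.95 and 4.62 on shChd4 arrays. These groups overlapped through shChd4 replicate 2. The difference was -0.36 ± 0.16 log2 units (SE; limma adjusted p = 0.109), with a 95% confidence interval from -0.72 to 0.00337. A second Pim1 probe differed by -0.13 ± 0.19 (SE; limma adjusted p = 0.631). Whether Pim1 and Pim3 differ in their change was not tested.

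**Figure D4:**
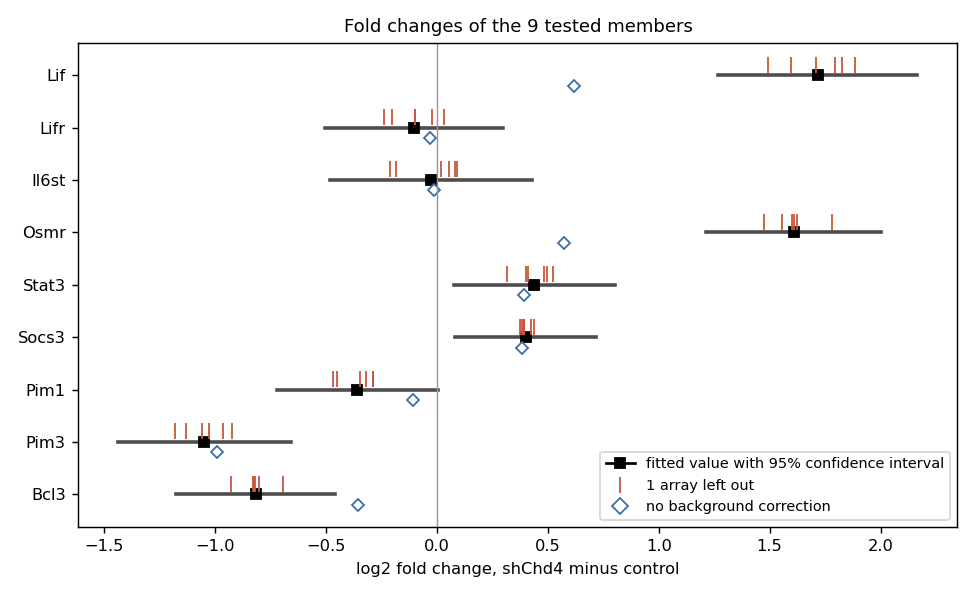
Log2 fold change (shChd4 minus control) of the 9 tested members, with the 95% confidence interval of the fit (grey bar), the values with 1 array left out (red ticks) and the value without background correction (blue diamond). For Lif, Osmr and Bcl3 the diamond lies much closer to 0; for Pim3, Stat3 and Socs3 it lies near the fitted value.

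By probe, 13 of the 22 were tested, 8 were not detected on any array, and 6 passed, beside 36.0% of the 14610 named probes tested. These 6 are the first 2 Lif probes, the brightest Osmr probe, the second Stat3 probe, Pim3 and Bcl3. Groups did not overlap for 8 of the 13, against 48.4% of probes. The first 2 Lif probes and the brightest Osmr probe were each detected on at most 1 control array. They entered the test through their shChd4 arrays, and Lif is counted more than once, so both counts are a description.

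The other genes of the pathway moved in both directions. Of 50 listed, 47 had a named probe and 40 were tested; 9 rose, 7 fell and 24 did not pass. These 16 are 40.0% of the genes tested, close to the 38.1% of all genes, and the median log2 fold change was 0.03, beside -0.05 for all genes. No change of the list as a whole is read from these counts. Of the 16, 9 passed in every alternative in which they could be tested, and 7 lost the call in at least 1 (Osm, Clcf1, Il27ra, Jak3, Stat5a, Socs6 and Pias2). Sizes depended on the background step, as for Lif and Osmr. Without it the log2 fold change was 0.56 for Il11, 0.56 for Jak2, 0.46 for Socs5, -0.46 for Stat6 and -0.50 for Ptpn6, each over 1.5 times smaller and each still past the threshold. It was 0.18 for Osm, -0.22 for Il27ra, -0.21 for Jak3, 0.25 for Stat5a and -0.16 for Socs6, and none of these passed.

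Among further ligands, 3 of 4 tested rose and 0 fell, where 19.9% of all genes tested rose. These 3 were detected on every shChd4 array but on fewer control arrays (Clcf1 on 0, Osm on 1, Il11 on 2), so the count is a description. Il11, a gp130 cytokine, read 5.21, 4.84 and 5.33 on control and 6.60, 6.65 and 6.51 on shChd4 arrays. Its groups were well apart, and it rose by 1.46 ± 0.17 on the log2 scale (SE; adjusted p = 7.67e-05 by limma). Clcf1, which encodes a ligand of the ciliary neurotrophic factor receptor, stayed below detection in all controls. Its shChd4 mean lay 1.11-fold above the lowest detected signal of the control arrays. In the fit Clcf1 rose by 0.60 on the log2 scale (limma adjusted p = 0.0123). It kept the call in 9 of 12 alternatives and lost it without shChd4 replicate 1 (0.47, adjusted p = 0.0524), without background correction (0.19, adjusted p = 0.0865) and with the authors' values (0.19, adjusted p = 0.0859). Osm, the ligand of Osmr, had a log2 fold change of 0.58 with overlapping groups (limma adjusted p = 0.0447) and kept the call in 5 of 12 alternatives. It lost it without control replicate 2 (0.49) or 3 (0.54) and without shChd4 replicate 1 (0.56) or 2 (0.41). A second Osm probe, detected on 1 array, differed by -0.09. Ctf2, Cntf and Il27 were not detected on any array.

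Of the further receptor genes, Il27ra fell (-0.56 ± 0.16 SE; limma adjusted p = 0.0161; called in 9 of 14 alternatives, not without control replicate 3, -0.47, or shChd4 replicate 1, -0.49), and Il6ra, which binds interleukin 6, differed by 0.12 (limma adjusted p = 0.650). Among the 4 Janus kinase genes, Jak2 rose and Jak3 fell (50% passed, beside 38.1% of all genes). Jak2 read 5.31, 5.51 and 6.12 on control and 7.52, 6.44 and 6.62 on shChd4 arrays. shChd4 replicate 1 was the highest, as for Lif and Stat3, and without it the log2 fold change was 0.88 rather than 1.22 ± 0.29 (SE; limma adjusted p = 0.00643). A second Jak2 probe, detected on 4 arrays, rose by 0.70 (limma adjusted p = 0.0293 among probes). The other Jak2 probes were not detected on any array (-0.06 and 0.09). Jak3 differed by -0.56 (limma adjusted p = 0.0491) and kept the call in 5 of 14 alternatives. Without shChd4 replicate 1 it differed by -0.33, and the call was also lost without control replicate 1 (-0.62), 2 (-0.55) or 3 (-0.51). Among probes it did not pass (limma adjusted p = 0.0501), and a second Jak3 probe differed by -0.32 (limma adjusted p = 0.346). Jak1 (-0.14) and Tyk2 (0.10) did not pass.

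Of the 4 other STAT genes tested, Stat6 fell and Stat5a rose (50% passed, beside 38.1% of all genes). Stat6, the factor of interleukin 4 signalling, read 7.30, 7.28 and 7.18 on control and 6.65, 6.48 and 6.09 on shChd4 arrays. Its log2 fold change was -0.85 ± 0.17 (SE; limma adjusted p = 0.00320). Stat5a had 0.69 ± 0.20 (SE; limma adjusted p = 0.0206), and lost the call in 8 of 14 alternatives. Among these were leaving out control replicate 2 (0.57) or 3 (0.59) and shChd4 replicate 2 (0.61) or 3 (0.69). A second Stat5a probe differed by 0.20.

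Among 12 tested inhibitor and phosphatase genes, 1 rose and 3 fell (33.3% passed, beside 38.1% of all genes). The suppressor gene Socs5 read 4.71, 4.81 and 5.15 on control and 6.61, 5.49 and 6.45 on shChd4 arrays. Socs5 thus rose by 1.30 ± 0.27 log2 units (SE, adjusted p = 0.00321 by limma). It was detected on 1 control and 3 shChd4 arrays and so entered the test through the group where it is high. A second Socs5 probe was not detected on any array (-0.00429). Ptpn6, the SHP-1 phosphatase gene, fell by 0.76 on its brightest probe (limma adjusted p = 0.00494) and by 0.52 on a second. Pias2 (-0.56; limma adjusted p = 0.0193) and Socs6 (-0.43; limma adjusted p = 0.0442) also fell. Pias2 lost the call without control replicate 2 (-0.48) and without shChd4 replicate 1 (-0.51) or 2 (-0.52). Socs6 kept it in 5 of 14 alternatives and lost it with any 1 array left out (-0.47 to -0.35). Among probes Socs6 did not pass (limma adjusted p = 0.0516). The brightest probes of the other 8 ranged from -0.46 to 0.28. Among these, Pias3 differed by -0.41 on its brightest probe (limma adjusted p = 0.0877), while a second probe, detected on 6 arrays, fell by 0.93 (adjusted p = 0.00248 among probes). Of the adaptors, Ptpn11, which encodes SHP-2 and links gp130 to the ERK route, rose by 0.69 ± 0.18 (SE, limma adjusted p = 0.0118). Of its other detected probes, 1 passed (0.64, limma adjusted p = 0.0176) and 1 did not (0.33, limma adjusted p = 0.174). Gab1 and Grb2 did not pass.

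Of 11 further STAT3 and LIF target genes, 2 rose, 1 fell and 8 did not pass (27.3% passed, beside 38.1% of all genes). Junb, an AP-1 subunit gene, read 7.79, 8.07 and 7.58 on control and 9.34, 9.37 and 9.64 on shChd4 arrays. Its log2 fold change was 1.64 ± 0.18 (SE; limma adjusted p = 4.52e-05). Cebpb rose by 1.17 ± 0.22 (SE; limma adjusted p = 0.00167), while its relative Cebpd fell by 0.78 (SE 0.18; limma adjusted p = 0.00543). The transcription factor genes that carry the LIF signal in ES cells did not pass. Klf4 differed by -0.03 (95% confidence interval -0.39 to 0.34), Klf5 by 0.05 (-0.31 to 0.41), Tfcp2l1 by -0.43 (-0.94 to 0.08) and Gbx2 by -0.50 (-0.96 to -0.04; limma adjusted p = 0.0840). A fall of the size of that in Bcl3 lies within the intervals of Tfcp2l1 and Gbx2 and outside those of Klf4 and Klf5.

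**Figure D5:**
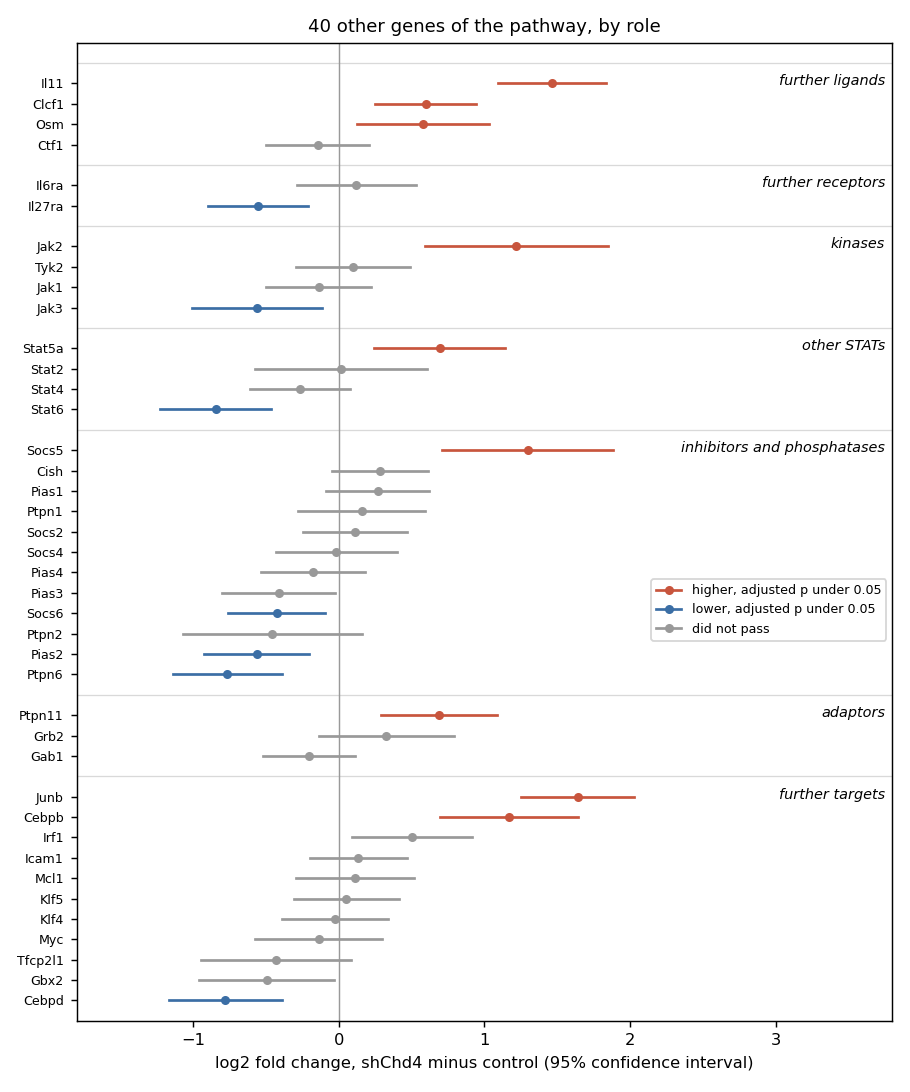
Log2 fold change (shChd4 minus control) with 95% confidence interval for the 40 other pathway genes tested, grouped by role; red genes were higher and blue genes lower at an adjusted p under 0.05, grey genes did not pass. Il11, Jak2, Socs5, Junb and Cebpb lie above 1 (without background correction Junb, 1.31, and Cebpb, 1.02, do), and the kinases, other STATs, inhibitors and further targets hold both rises and falls.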

How the data were processed

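The authors deposited a scanner table for 6 arrays and 45281 probes. Per the file headers it pairs each linear intensity with a detection p-value, and the submitters' processing notes name GenomeStudio. A second deposited table holds the authors' intensity values for the same arrays, on a linear scale, with nearly equal medians (115.16 to 115.19). The sources used here do not say how its values were made, and they were tried as an alternative.

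Scanner intensities were corrected by normexp with parameters from the detection p-values, with an offset of 16, followed by quantile normalisation and log2 (limma 3.58.1, R 4.3.3). Of the probes, 34885 have 1 gene symbol, 18 several and 10378 none; the last 2 kinds were left out. Symbols of 34807 probes were matched to RefSeq (GRCm38.p6, names only), and 78 kept the name in the annotation. The brightest probe stood for a gene, which was tested if that probe had a detection p under 0.05 on at least 3 arrays. Groups were compared with limma (lmFit, eBayes) and Benjamini-Hochberg adjustment over 9808 genes, and again over 14610 probes. Where no array of a group detected a gene, a fold against the lowest detected signal of those arrays is given. It is an estimate with background correction applied, not a lower limit over all settings. Arrays carry no read depth, and with 3 per group their number limits the precision. Arrays of 1 group correlated with r from 0.983 to 0.989 across the genes tested and none were duplicates. The steps were tested on simulated arrays with changes placed only in brighter probes. Calls near background, such as those of Lif and Osmr, were therefore not covered by that test.

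The members and gene lists were chosen with earlier results of these data known. Promoters were to be printed for members with a motif that passed; those of Lif and Pim3 were added. The naming rule took every member, Chd4, up to 4 genes of each pathway list that passed and whose groups lay apart, and up to 2 markers per cell type by smallest p. Osm, Il6ra, Csf1r, Pias3, Jak1, Tyk2, Gab1, Grb2, Klf4, Klf5, Tfcp2l1, Gbx2 and genes not detected in 1 or both groups were named outside it, after their values were seen. Alternatives were no background correction, median scaling, the authors' values, 3 other detection filters, the mean of detected probes, array weights and leaving out each array. A BeadChip block could not be fitted because each chip holds 1 group. Listed genes without a named probe were not analysed here.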

Additional observations from a re-analysis of the deposited data

How the results depend on the processing

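The count of members past the threshold was 5, and 4 to 6 over 14 alternatives (4 to 5 with 1 array left out). The count over all genes was 3735, and 2865 to 3900 (2865 to 3577 with 1 array left out); over other pathway genes it was 16, and 11 to 17 (11 to 16); over probes it was 5263, and 4006 to 5463 (4006 to 4970). Lif and Osmr passed in 13 of 13 alternatives and Pim3 and Bcl3 in 14 of 14, with the same sign. Lif and Osmr could not be tested in the alternative that required detection on all 6 arrays. Any gene with fewer than 14 alternatives likewise missed a stricter detection filter. The sizes for Lif, Osmr and Bcl3 depended on the background step, as given above. Il6st changed sign with median scaling (0.12) and without control replicate 1 (0.02), control replicate 2 (0.09), shChd4 replicate 1 (0.08) or shChd4 replicate 2 (0.05). Lifr changed sign with median scaling (0.00320) and without shChd4 replicate 2 (0.032). With 1 array left out, Il6st ranged from -0.21 to 0.091 and Lifr from -0.24 to 0.032. Neither passed in any of these. The Stat3 and Socs3 calls moved across the threshold as stated above; the cause was not tested. No paired analysis was possible because the labels carry no replicate numbers, and the numbers used here only name arrays. Signal over background limits Il6, Lifr and Pim1, which lay at or near background.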

Other observations

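Markers of further cell types gave mixed values. Of 7 macrophage markers, 6 had a named probe and 3 were tested. Lyz2, a lysozyme gene, and Cd14, a lipopolysaccharide co-receptor gene, rose (limma adjusted p = 1.81e-05 and 8.67e-05), where 19.9% of all genes tested rose. Neither was detected on any control array, so both were tested only through the group where they are high. Their shChd4 means lay 3.61-fold and 1.70-fold above the lowest detected signal of the control arrays. The defining markers Ptprc, Adgre1 and Itgam were not detected on any of the 6 arrays, and Csf1r differed by -0.02. Of 5 endothelial markers, 2 were tested and 0 passed, where 38.1% of all genes tested passed (Pecam1 -0.48, limma adjusted p = 0.0926, and Tek 0.19). No statement on endothelial cells follows from 2 genes. Cdh5 and Tie1 were not detected on any array.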
